A study of Mus musculus with 3 samples.

Results

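The neurotrophin receptor genes Ntrk2, Ntrk3 and Ngfr were followed across the cell clusters of mouse pituitaries of 3 genotypes. They were taken by gene symbol from the deposited table and are 3 of its 55403 gene rows, each symbol standing on a single row. They were picked with their levels in these libraries already known, so the levels and ratios given here describe the choice and were not tested. The study sequenced single cells of pituitaries labelled TpitWT, TpitHT and TpitKO, with 1 library for each genotype. Tpit is a transcription factor encoded by Tbx19 and is required for cells that make pro-opiomelanocortin, the precursor of ACTH. What HT stands for, the kind of Tpit allele, and the age and number of the mice are not given in the labels. Cells of all 3 libraries had been dissociated and sorted for live cells with the dye propidium iodide.

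Neurotrophins are secreted growth factors first known for keeping neurons alive. Brain-derived neurotrophic factor and neurotrophin-4 bind the receptor tyrosine kinase TrkB, encoded by Ntrk2, and neurotrophin-3 prefers TrkC, encoded by Ntrk3. Ngfr encodes the p75 neurotrophin receptor, a member of the tumour necrosis factor receptor family that binds all neurotrophins and their unprocessed forms. Ntrk2 and Ntrk3 also give rise to shortened receptors that lack the kinase. Neurotrophins and Trk receptors have been found in endocrine cells of the pituitary as well as in nerve tissue.

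The libraries held 11222, 12839 and 13413 cells in WT, HT and KO, with means of 9561, 11869 and 9935 counts per cell. Tbx19 was read at 17.6 and 12.4 CPM (counts per 1000000 counts of the cells summed) in WT and HT and at 0.690 CPM in KO, and Pomc at 21846, 22576 and 58.3 CPM. Of 37359 barcode sequences, 115 occurred in more than 1 library. The authors' 21 clusters carry numbers only, and names ending in "-like" were given here from marker genes. Clusters 4, 5, 11, 12, 13 and 17 did not meet a marker list clearly enough and are called by leading genes. The KO library had no cells in the corticotrope-like cluster 6 or the melanotrope-like cluster 7. With 1 library for each genotype, effects of animal, library and genotype cannot be told apart, and no test was possible. The 95% intervals cover counting error only and are too narrow, because counts from the same cell are not independent.

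Ntrk2 lies on chromosome 13 from 58806569 to 59133970 on the plus strand of GRCm38, Ntrk3 on chromosome 7 from 78175959 to 78738012 on the minus strand, and Ngfr on chromosome 11 from 95568818 to 95587735 on the minus strand. The coordinates in the table equal those of GENCODE M21 for all 3. GENCODE M21 lists 7 protein-coding transcripts of Ntrk2 with 6 different 3′ ends and 6 of Ntrk3 with 6 different 3′ ends, and 1 transcript of Ngfr. The counts were summed per gene, so full-length and shortened receptors could not be told apart. Levels of different genes are not compared with one another here.

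Ntrk2 was read in nearly all clusters, with its highest levels in pituicyte-like and stem-cell-like cells and its lowest in immune cells. Over all cells of a library, Ntrk2 stood at 107 CPM in WT (11531 counts), 111 CPM in HT (16930 counts) and 71.0 CPM in KO (9456 counts). WT and HT were close and KO was lower. An Ntrk2 count was present in 44.2%, 48.0% and 32.0% of all cells of WT, HT and KO. In sums over all cells, fewer cells of a type and less RNA per cell cannot be told apart, so the clusters are given next.

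Among WT clusters of at least 100 cells, the stem-cell-like cluster 10 had the highest Ntrk2 level, at 356 CPM (326 to 388). The lactotrope-like cluster 0, marked by Prl, Gal and Angpt1, followed at 206 CPM (201 to 211). Corticotrope-like cells stood at 123 CPM (116 to 131), gonadotrope-like cells at 102 CPM (93.1 to 111) and the Prl-led cluster 4 at 72.1 CPM (66.2 to 78.3). The intervals of these 5 levels did not overlap. Below them, the somatotrope-like clusters 2 and 1, at 50.8 and 46.4 CPM, and the endothelial-like cluster 9, at 38.8 CPM, had overlapping intervals. In HT, cluster 10 was again highest, at 365 CPM, but corticotrope-like cells, at 249.5 CPM, stood above lactotrope-like cluster 0, at 187 CPM. In KO, the order among the shared endocrine clusters differed: gonadotrope-like cells, at 107 CPM (103 to 112), stood above lactotrope-like cluster 0, at 86.9 CPM (83.6 to 90.3).

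The macrophage-like cluster 8, which is not an endocrine cell type, gives an idea of the background from free RNA. Ntrk2 stood there at 23.3, 9.19 and 8.78 CPM in WT, HT and KO, with a count in 6.19%, 2.92% and 2.64% of cells. These cells were shallow, with means of 3630, 4331 and 4644 counts per cell, against 9013, 11496 and 9319 in cluster 0. Melanotrope-like cells stood at 26.3 CPM in WT (22.4 to 30.7), which overlaps the macrophage-like interval of 15.2 to 34.2. By CPM, Ntrk2 was therefore not above this background there. The share of WT cells with a count was higher, at 13.7% against 6.19%, and these intervals did not overlap. Ntrk2 counts per cell were 0.221 against 0.0847. The WT melanotrope-like cells were deeper, at 8380 counts per cell, so the measures differ and the background there was not settled. HT melanotrope-like cells, at 27.0 CPM, were above the HT macrophage-like level. Medians and thinning to equal depth could not be had, since the tables hold sums over cells.

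**Figure D1:**
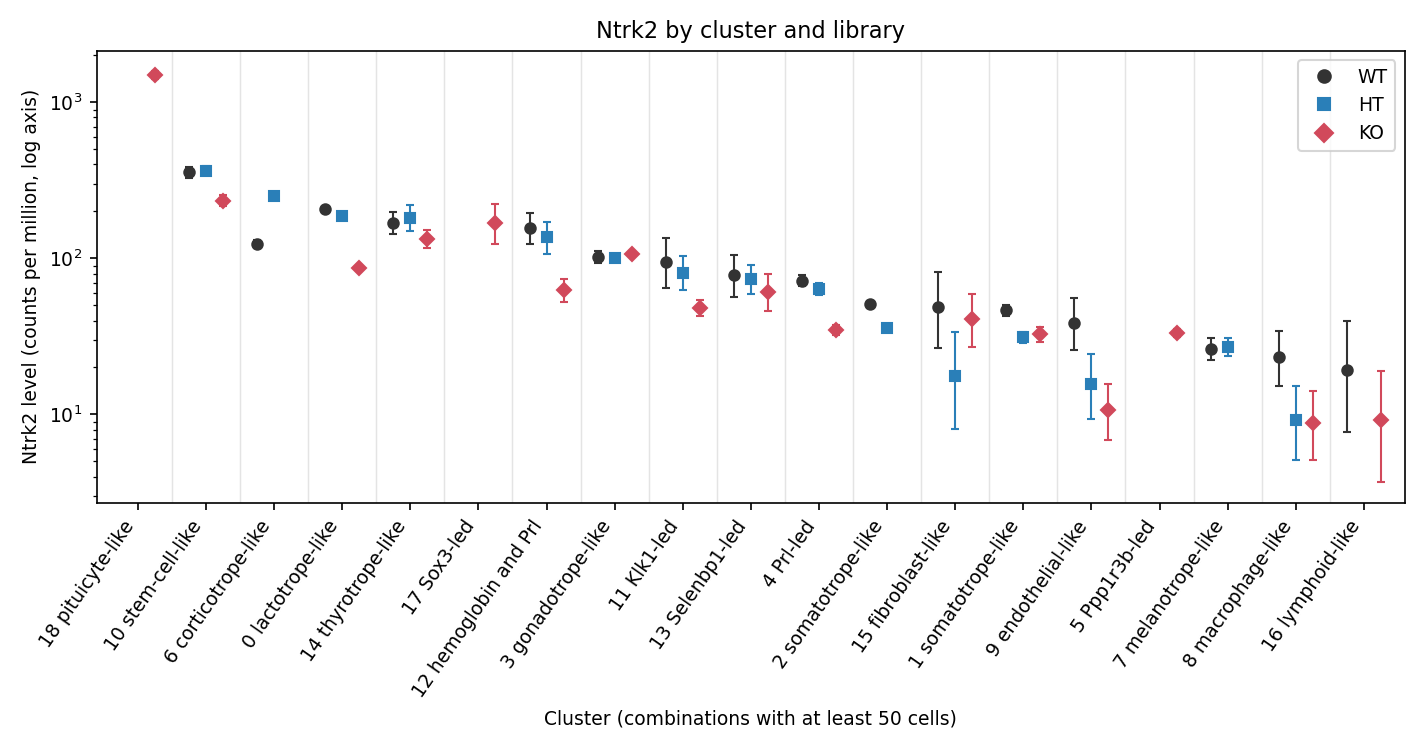
Ntrk2 level in CPM (log axis) for each cluster with at least 50 cells in a library, with points for the WT, HT and KO libraries and bars for exact 95% Poisson intervals, which cover counting error only. The KO point of pituicyte-like cluster 18, at 1491, is the highest, and the KO points of clusters 0 and 4 lie below those of WT and HT.

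Lactotrope-like cluster 0 held the largest number of Ntrk2 counts in each library. It gave 53.5% of the WT library's Ntrk2 counts, 56.1% of those in HT and 27.0% of those in KO. The level was 206, 187 and 86.9 CPM in WT, HT and KO, so the KO library was low and the other two were close. The KO over WT ratio was 0.421 (0.402 to 0.441) and KO over HT was 0.464, while HT over WT was 0.908. At least 2-fold lower KO over HT ratios were found for 1.13% of compared genes in this cluster. Ntrk3 was not set apart from background in cluster 0, and its KO over WT ratio was 0.540 with 1 CPM added. By CPM, Ntrk2 and Ntrk3 were both at least 2-fold lower in KO than in WT there. So were 1.92% of the 15738 genes with 50 or more counts in the 2 libraries. The receptors were chosen with these levels known, so nothing is read from that share.

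Fewer cluster 0 cells had an Ntrk2 count in KO, and those that did held fewer counts. The share of cells with a count was 69.0% in WT (67.4% to 70.6%), 69.5% in HT and 39.9% in KO (38.2% to 41.7%). Cells with a count held on average 2.69, 3.1 and 2.03 Ntrk2 counts. The KO share lay well above the 2.64% of KO macrophage-like cells, and the WT and KO depths of cluster 0 were close. Of the 7 lactotrope markers, only Gal, which encodes the neuropeptide galanin, was at least 2-fold lower in KO than in WT (all genes, 1.92%). Gal stood at 699, 532 and 305 CPM in WT, HT and KO. Prl and Drd2, which encode prolactin and its inhibitory dopamine receptor, did not pass that fold.

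Markers of cells with high Ntrk2 were scarce in cluster 0. The 8 stem cell markers, none of them at 0, summed to 10.6, 8.61 and 7.0 CPM in WT, HT and KO, against 10759, 11762 and 8659 CPM in cluster 10. The 7 pituicyte markers summed to 14.8, 16.3 and 24.8 CPM, with 1 of them at 0 in WT and HT, and Col25a1 of that list was at least 2-fold higher in KO than in WT (all genes, 1.03%). The stem cell sum was lowest in KO and the pituicyte sum was highest there, and their part in the Ntrk2 difference was not tested.

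The Prl-led cluster 4 had the same order of libraries for Ntrk2, at 72.1, 63.8 and 34.6 CPM in WT, HT and KO. Its KO over WT ratio was 0.481 (0.429 to 0.538), in a cluster where 0.752% of compared genes were at least 2-fold lower. The share of cells with an Ntrk2 count was 45.8%, 47.1% and 27.3%. KO was again the low library and the WT and HT shares overlapped within their intervals. Cluster 4 drew its name from Prl alone, since only Prl of the 7 lactotrope markers was over 2-fold above the other clusters.

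Stem-cell-like cluster 10, defined by Sox2, Sox9, Cyp2f2 and other progenitor genes, showed a smaller difference. Ntrk2 stood there at 356, 365 and 234.5 CPM in WT, HT and KO. KO was the low library, with a KO over WT ratio of 0.659 (0.584 to 0.743) and a KO over HT ratio of 0.643. By share of cells the gap was narrower, at 66.3%, 72.1% and 57.6%. The transcription factors Sox2 and Sox9, which mark these cells, stood at 567.5, 505 and 606 CPM and at 403, 355 and 460 CPM, so neither was lowest in KO. Lcn2, an antimicrobial protein gene among the 8 markers, was at least 2-fold lower in KO, as were 1.14% of compared genes. Ntrk2 did not pass that fold.

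Gonadotrope-like cluster 3, which expresses Lhb, Fshb and Gnrhr, had close Ntrk2 levels in all 3 libraries, at 102, 101 and 107 CPM. The KO over WT ratio was 1.06 (0.959 to 1.16), an interval that spans 1. By share of cells with a count, WT was lower, at 50.6% (45.8% to 55.3%), against 58.3% in HT and 58.1% in KO (55.6% to 60.4%). The mean depths were 11207, 15808 and 12862 counts per cell, so these shares compare cells of unequal depth. As the cluster was larger in KO, it gave 24.3% of that library's Ntrk2 counts, against 4.44% in WT and 5.92% in HT.

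In cluster 1 and in the sum of the Gh-expressing clusters, Ntrk2 was higher in WT than in either HT or KO. Some parts with few cells went the other way, with overlapping intervals. KO cluster 2 (17 cells) stood at 76.9 CPM against 50.8 CPM in WT. HT cluster 5 (24 cells) stood at 97.7 CPM against 77.2 CPM in WT (28 cells). Somatotrope-like cluster 1 stood at 46.4, 31.2 and 32.6 CPM in WT, HT and KO, with KO over WT at 0.702 (0.612 to 0.804) and HT over WT at 0.673 (0.600 to 0.754). Summed over clusters 1, 2 and 5, the levels were 49.6, 34.6 and 33.3 CPM. HT and KO were close to each other here, which differs from cluster 0, where HT was close to WT. The macrophage-like background was also highest in WT, at 23.3, 9.19 and 8.78 CPM in WT, HT and KO. The part of free RNA in the differences of the Gh-expressing clusters was not tested. In cluster 1 the median log2 KO over WT ratio of all genes (1 CPM added to both) was 0.17, with 7969 of 11259 genes higher in KO, so the Ntrk2 ratio lay further below the median gene than below 1.

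Corticotrope-like cluster 6 could be compared between HT and WT only. The Ntrk2 level was 123 CPM in WT (984 counts) against 249.5 CPM in HT (2395 counts). HT over WT was 2.02 (1.88 to 2.18), and 0.977% of the 12798 compared genes were at least 2-fold higher in HT in this cluster. A count was found in 42.6% of WT cells and 70.4% of HT cells, and positive cells held 2.13 and 3.28 counts. The cluster's mean depth was 7376 counts in WT and 9256 in HT, so these shares compare cells of unequal depth. Among 5 corticotrope markers, Gpc5 was at least 2-fold lower in HT (all genes, 2.53%). The vasopressin receptor gene Avpr1b and the CRH receptor gene Crhr1 stood at 104 and 69.6 CPM and at 59.8 and 35.5 CPM in WT and HT. The stem cell list, with 1 of 8 markers at 0 in each library, summed to 31.5 and 28.6 CPM in WT and HT. The lactotrope list summed to 5277 and 3620 CPM. Both sums were lower in HT, and their part in the Ntrk2 difference was not tested. Melanotrope-like cells, the other Pomc-producing type, had an HT over WT ratio of 1.02 (0.833 to 1.26).

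**Figure D2:**
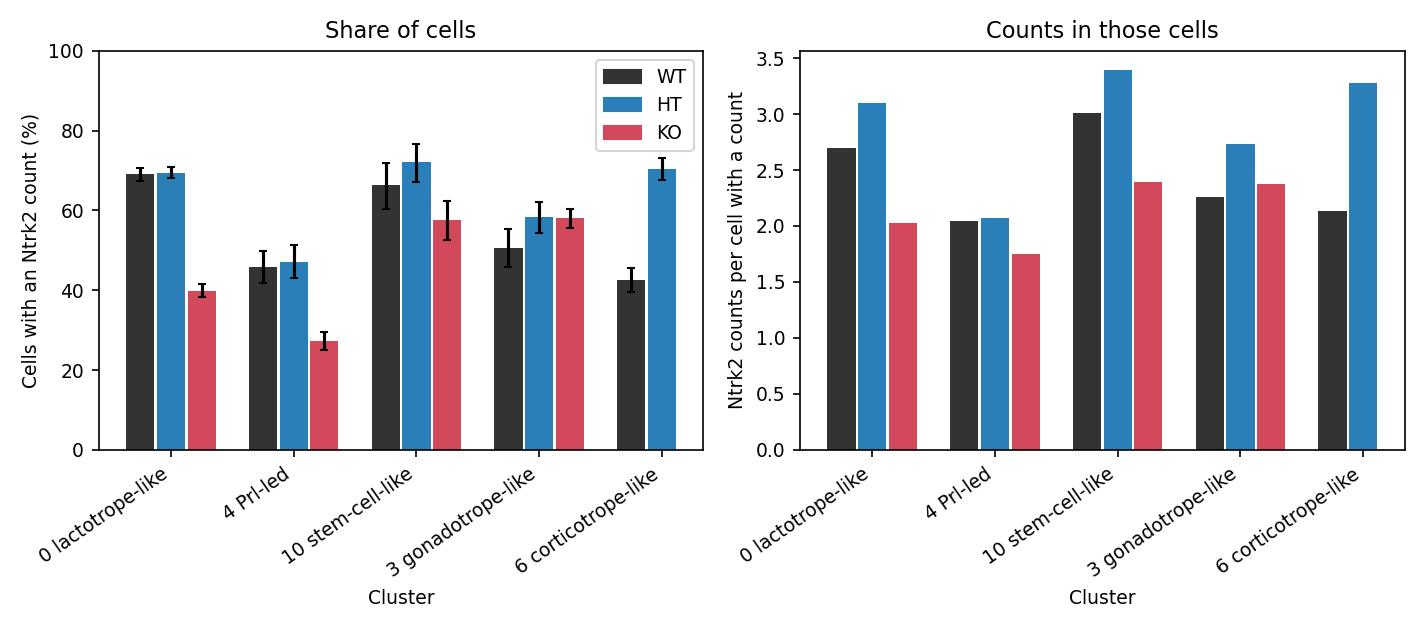
Left, share of cells with an Ntrk2 count (%) in 5 clusters for the WT, HT and KO libraries, with exact 95% Clopper-Pearson intervals for counting error; right, mean Ntrk2 counts in the cells that had a count. In clusters 0 and 4 both quantities are lowest in KO (39.9% and 2.03 counts in cluster 0), and in corticotrope-like cluster 6 both are higher in HT than in WT.

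Pituicyte-like cluster 18, glia of the neural lobe, held the highest Ntrk2 level of any cluster of at least 50 cells. In KO it comprised 107 cells with 1096 Ntrk2 counts, 1491 CPM (1404 to 1582), and 89.7% of its cells had a count. It made up 0.798% of KO cells and gave 11.6% of the KO library's Ntrk2 counts. WT had 9 such cells with 34 counts (605 CPM) and HT had 2 cells with 6 counts (312 CPM), too few for a comparison. Pituicyte markers Cldn10 and Scn7a stood at 6355 and 1106 CPM in the KO cells, and the homeobox gene Rax, needed for neural lobe formation, at 350 CPM (257 counts). The 5 markers of Schwann and other glia summed to 88.9, 0 and 1102 CPM, with 3, 5 and 1 of them at 0 in WT, HT and KO. Their part in the Ntrk2 level was not tested. Without cluster 18, the KO over WT ratio of Ntrk2 over all remaining cells was 0.588 instead of 0.660.

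Clusters also contributed different numbers of cells to each library. Weighting each cluster by its share of WT cells, over the 16 clusters with at least 20 cells in both, gave 139 CPM for WT and 71.1 CPM for KO, a ratio of 0.510. These sums leave out clusters 2, 6, 7, 18 and 20, which had under 20 cells in WT or KO. The WT cells left out are therefore mainly somatotrope-like cells of cluster 2 with low Ntrk2 (2081 cells), corticotrope-like cells (1081) and melanotrope-like cells (730).

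Smaller clusters added a few further Ntrk2 levels. Thyrotrope-like cells, marked by Tshb and Trhr, stood at 169, 183 and 134 CPM in WT, HT and KO (91, 52 and 157 cells), with overlapping WT and KO intervals. The hemoglobin and Prl cluster 12 stood at 157, 137 and 62.7 CPM and the Klk1-led cluster 11 at 94.7, 81.1 and 48.2 CPM, KO being lowest in both. In endothelial-like cells, which had 29, 19 and 25 counts, Ntrk2 was at 38.8, 15.6 and 10.7 CPM. The KO over WT ratio there was 0.275 (0.154 to 0.486), with 2.11% of compared genes at least 2-fold lower, but the macrophage-like background had a ratio of 0.376 in the same libraries, so this level was not set apart from free RNA.

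Other annotated genes overlap Ntrk2, and the sources used here do not state whether counting used strand. Of them, Gm47423 on the opposite strand had 2265 counts and C630044B11Rik on the same strand had 520, against 37917 for Ntrk2. In cluster 0, Gm47423 stood at 13.2, 7.86 and 14.1 CPM in WT, HT and KO, with a KO over WT ratio of 1.07 (0.929 to 1.23). C630044B11Rik had a ratio of 0.872 (0.628 to 1.21), so neither showed the KO difference of Ntrk2 in that cluster. In corticotrope-like cells the HT over WT ratios were 1.56 (1.24 to 1.96) for Gm47423 and 1.69 (1.03 to 2.85) for C630044B11Rik, in the same direction as Ntrk2.

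Ntrk3 was read in fewer cells, mainly fibroblast-like, somatotrope-like and gonadotrope-like ones. Over all cells it stood at 11.6 CPM in WT (1243 counts), 6.94 CPM in HT (1057 counts) and 4.84 CPM in KO (645 counts), the levels descending from WT to HT to KO. KO over WT was 0.418 (0.379 to 0.460) and HT over WT was 0.599 (0.551 to 0.650). Of the 2 receptors with enough counts over all cells, Ntrk3 was at least 2-fold lower in KO than in WT and Ntrk2 was not, beside 2.55% of 21791 compared genes. The share of cells with an Ntrk3 count was 7.26%, 5.35% and 2.92%. In macrophage-like cells, at the lower depth given above, it was 1.63%, 0.531% and 0.24% (5, 2 and 1 counts).

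Fibroblast-like cluster 15, which expresses collagen genes and the proteoglycan gene Dcn, had the highest Ntrk3 level in all 3 libraries, on few cells. There were 33 counts in 57 WT cells, 47 counts in 99 HT cells and 55 counts in 144 KO cells. The levels were 115, 92.8 and 80.5 CPM, with overlapping intervals from 78.9 to 161 in WT and from 60.6 to 105 in KO. Next in WT came somatotrope-like cluster 2 at 26.7 CPM (24.8 to 28.6) and cluster 1 at 17.9 CPM (15.8 to 20.3). Gonadotrope-like cells followed at 13.1 CPM (10.1 to 16.7), an interval that overlaps that of cluster 1.

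**Figure D3:**
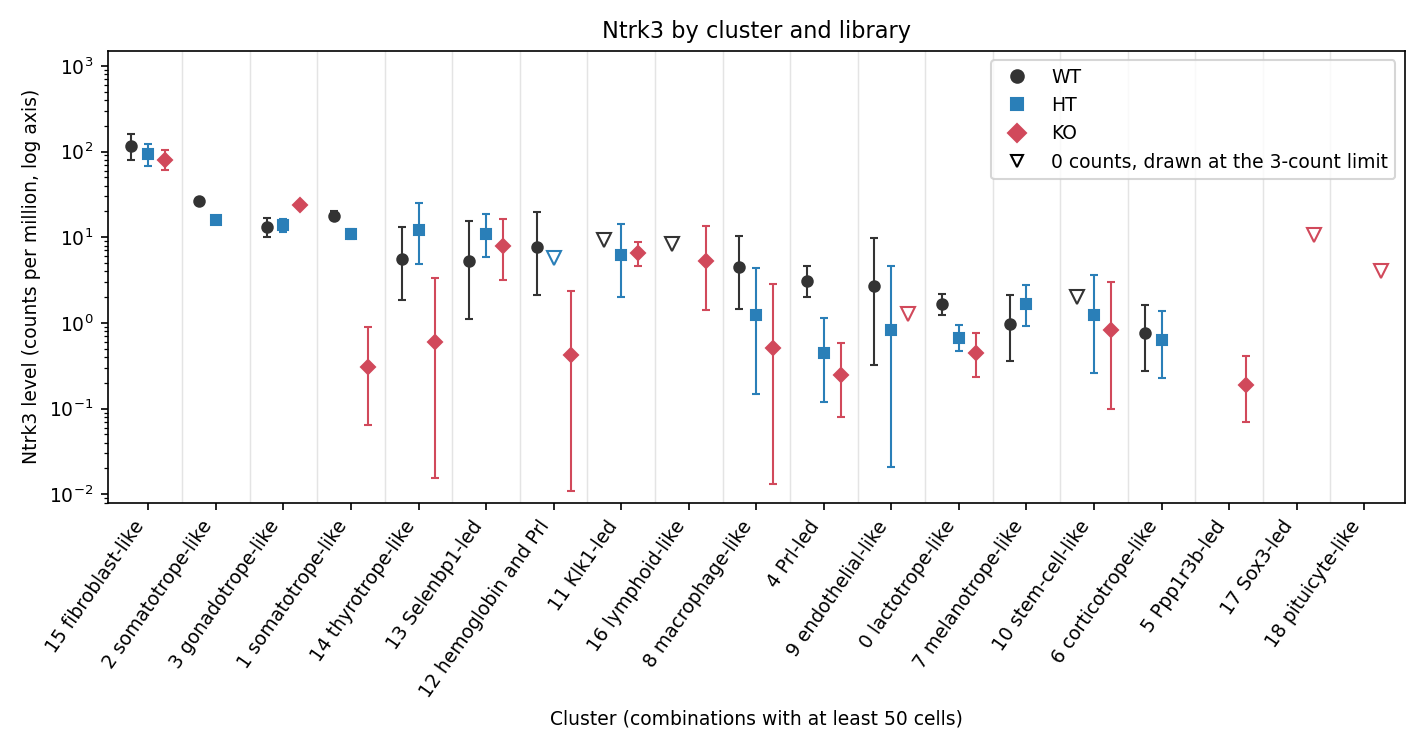
Ntrk3 level in CPM (log axis) for each cluster with at least 50 cells in a library; bars are exact 95% Poisson intervals for counting error, and open triangles mark 0 counts, drawn at the limit of 3 counts. Clusters 1 and 5 of the KO library lie at 0.308 and 0.190, whereas the KO point of gonadotrope-like cluster 3, at 23.7, lies above those of WT and HT.

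Ntrk3 was nearly absent from the Gh-expressing cells of the KO library. In cluster 1, WT had 248 counts (17.9 CPM), HT had 202 counts (10.97 CPM) and KO had 3 counts (0.308 CPM). KO was far below both others, with KO over WT at 0.0172 (0.00352 to 0.0508) and KO over HT at 0.0281 (0.00575 to 0.0833). Of the genes compared in cluster 1, 2.06% were at least 2-fold lower in KO than in WT and 1.88% than in HT, and 0.0444% had a lower ratio than Ntrk3. Ntrk3 counts were present in 10.9%, 8.10% and 0.168% of the cells. The KO share was no higher than that of the KO macrophage-like cells, 0.24%, and is read as background.

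The clusters were not shared evenly, because cluster 2 held 2081 and 2092 cells in WT and HT but 17 in KO, and cluster 5 held 28, 24 and 2457. Cluster 2 gave 63.5% of WT and 55.0% of HT Ntrk3 counts, whereas the 17 KO cells had none and the KO cells of cluster 5 had 6 counts. The sum of clusters 1, 2 and 5 therefore sets similar numbers of cells side by side, 3744, 3831 and 3662. It held 1039, 783 and 9 Ntrk3 counts, or 23.8, 14.2 and 0.217 CPM. The KO over WT ratio was 0.00911 (0.00415 to 0.0174), and 0.0491 with 1 CPM added to both, since it rests on 9 KO counts at a level read as background. Of compared genes, 2.86% were at least 2-fold lower there. HT was also lower than WT, with a ratio of 0.599 (0.545 to 0.658) over these clusters.

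Other marker genes of these cells were lower in KO by less. Ghrhr, the receptor of growth hormone-releasing hormone, stood at 65.9, 61.1 and 29.2 CPM in cluster 1 of WT, HT and KO and at 24.8 CPM in the KO cells of cluster 5. Ghrhr and Pappa2, a protease acting on IGF-binding proteins, were at least 2-fold lower in KO than in WT in cluster 1 (all genes, 2.06%). No other of the 5 somatotrope markers passed that fold. Cluster 5 had only 2 of the 5 somatotrope markers over 2-fold above the other clusters and was not named. The 6 fibroblast markers in cluster 1 summed to 56.6, 46.6 and 78.3 CPM (1, 2 and 3 of them at 0), and Dcn stood at 0.722, 0.326 and 1.23 CPM. The fibroblast sum was therefore highest in KO, and its part in the Ntrk3 difference was not tested.

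Gonadotrope-like cells went the other way. Ntrk3 stood at 13.1 CPM in WT (66 counts), 13.9 CPM in HT (138 counts) and 23.7 CPM in KO (506 counts), with WT and HT overlapping and KO higher. KO over WT was 1.80 (1.39 to 2.37) and KO over HT was 1.71 (1.41 to 2.08). Among genes compared between KO and WT in this cluster, 96.5% had a lower ratio than Ntrk3. At least 2-fold higher were 2.47% of genes and at least 2-fold lower 2.50%, and Ntrk3 was in neither class. The share of cells with a count was 9.80%, 13.3% and 18.4%. These cells gave 5.31% of all Ntrk3 counts in WT, 13.1% in HT and 78.4% in KO. None of the 6 gonadotrope markers differed 2-fold between KO and WT, while Fshb, the follicle-stimulating hormone subunit, was at least 2-fold lower in KO than in HT (all genes, 1.52%). The fibroblast list summed to 63.6, 59.0 and 29.7 CPM in this cluster and was lowest in KO. Its part in the Ntrk3 difference was not tested.

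Lactotrope-like cells had little Ntrk3. Cluster 0 stood at 1.67, 0.670 and 0.442 CPM in WT, HT and KO (50, 34 and 13 counts), with KO over WT at 0.265 (0.132 to 0.494). The macrophage-like levels, 4.49, 1.22 and 0.516 CPM, rest on 5, 2 and 1 counts, and their intervals include the cluster 0 levels. Ntrk3 was therefore not set apart from this background in cluster 0. By share of cells, cluster 0 stood at 1.17%, 0.657% and 0.349%, against 1.63%, 0.531% and 0.24% in macrophage-like cells. The background is itself uncertain, since WT corticotrope-like cells stood lower, at 0.753 CPM (0.276 to 1.64). Cluster 4 had 24, 4 and 5 counts. The Klk1-led cluster 11 stood at 6.47 CPM in KO (41 counts in 871 cells) and 6.14 CPM in HT (5 counts). No Ntrk3 count was found in the 107 pituicyte-like KO cells, which allows up to 4.08 CPM.

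Gm9885, annotated on the strand opposite to Ntrk3 and overlapping it, had 1377 counts beside 2945 for Ntrk3. Between WT and KO it varied in the same directions in these 2 clusters. It had 60, 57 and 0 counts in cluster 1 of WT, HT and KO, and 4.17, 7.23 and 9.87 CPM in gonadotrope-like cells. Its KO over WT ratio in gonadotrope-like cells was 2.37 (1.51 to 3.90). Its HT over WT ratio there was 1.73 (1.05 to 2.97), whereas that of Ntrk3 was 1.06 (0.782 to 1.44). Where their exons overlap, reads of the 2 genes cannot be told apart if counting ignored strand. The overlap was taken from whole gene spans, and exons were not compared.

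**Figure D4:**
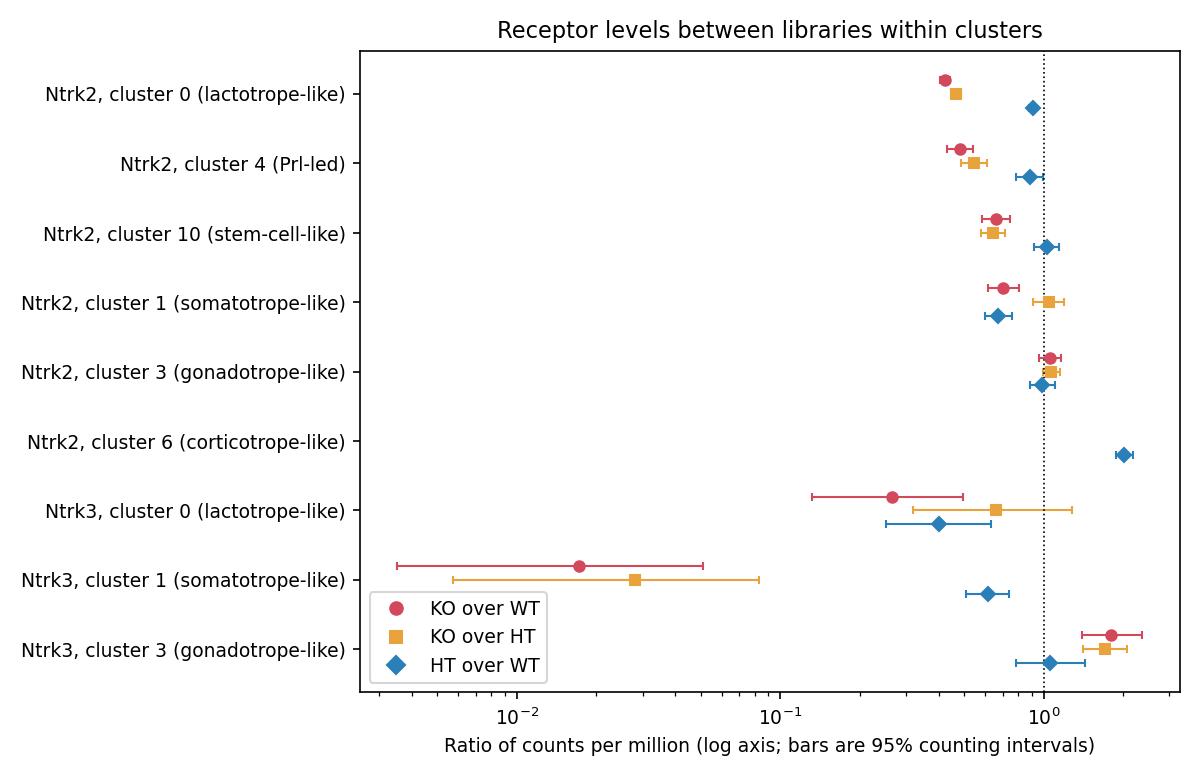
Ratios of CPM between libraries (log axis) for Ntrk2 in 6 clusters and Ntrk3 in 3; points are KO over WT, KO over HT and HT over WT, and bars are exact conditional binomial 95% intervals for counting error. For Ntrk2 in cluster 0 both KO ratios lie below 0.5 while HT over WT is 0.908, and for Ntrk3 the KO ratios lie far below 1 in cluster 1 and above 1 in cluster 3.

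Ngfr was barely read. There were 10 counts in WT, 4 in HT and 17 in KO, or 0.0932, 0.02625 and 0.128 CPM. KO over WT was 1.37 (0.592 to 3.34), an interval that spans 1. Without cluster 18 the ratio was 0.647, and with clusters weighted by their WT shares it was 0.981, so it gives no direction. Pituicyte-like cells held 9 of the 17 KO counts, at 12.2 CPM (5.60 to 23.2), and 6.54% of those 107 cells had a count. No Ngfr count was found in the KO macrophage-like cells, which allows up to 1.55 CPM. Corticotrope-like cells held 6 of the 10 WT counts and 3 of the 4 HT counts. The remaining counts were scattered, with 3 in KO lymphoid-like cells, 2 in KO stem-cell-like cells and 2 in WT cluster 0.

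The ligand genes differed in where their levels were highest. Bdnf, encoding the TrkB ligand, stood at 17.7, 26.5 and 14.03 CPM over all cells of WT, HT and KO, highest in HT. Its highest levels in WT and HT were in melanotrope-like cells, at 41.0 CPM (251 counts) and 97.0 CPM (813 counts), and KO had no such cells. HT over WT was 2.36 (2.05 to 2.73) there, and 1.04% of compared genes in that cluster were at least 2-fold higher. In lactotrope-like cluster 0, which held 54.9%, 43.4% and 40.7% of the libraries' Bdnf counts, Bdnf stood at 34.7, 34.5 and 25.9 CPM, with KO over WT at 0.746 (0.678 to 0.820). WT and HT were close and KO was lower, but by less than Ntrk2. The Prl-led cluster 4 went the other way for Bdnf, at 9.76, 23.3 and 19.3 CPM, with WT low and KO over WT at 1.98 (1.54 to 2.56). Gonadotrope-like cells had 2.19, 2.71 and 7.999 CPM of Bdnf (11, 27 and 171 counts), a KO over WT ratio of 3.66 (1.99 to 7.47). In corticotrope-like cells, Bdnf was at 5.27 CPM for WT and 14.8 CPM for HT, an HT over WT ratio of 2.81 (1.98 to 4.06). Both Bdnf and Ntrk2 were thus at least 2-fold higher in the HT cells of this cluster (all genes, 0.977%). The higher Bdnf in HT was not particular to these cells. In somatotrope-like clusters 2 and 1 its HT over WT ratio was 2.13 (1.87 to 2.45) and 1.65 (1.32 to 2.08). The Ntrk2 ratios there were 0.707 and 0.673, in the other direction. For comparison, Bdnf in macrophage-like cells had 0, 2 and 2 counts, and 0 counts in WT allow up to 2.69 CPM.

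Ntf5, the gene of neurotrophin-4, was highest in gonadotrope-like cells, at 25.4, 30.0 and 20.4 CPM (128, 299 and 437 counts). Stem-cell-like cells followed at 14.9, 11.7 and 13.1 CPM, with overlapping intervals. In corticotrope-like cells Ntf5 was at 9.53 CPM for WT and 2.92 CPM for HT, a ratio of 0.306 (0.191 to 0.478), opposite to Bdnf. Over all cells Ntf5 stood at 2.38, 2.83 and 4.10 CPM.

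Ntf3, the gene of neurotrophin-3, was read almost entirely in endothelial-like cells. That cluster held 30 of 31 WT counts, all 40 HT counts and 76 of 82 KO counts. The level within it was 40.2, 32.8 and 32.4 CPM, with overlapping intervals. Over all cells Ntf3 was at 0.289, 0.262 and 0.615 CPM, and endothelial-like cells made up 1.84%, 2.19% and 4.12% of cells, both highest in KO.

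**Figure D5:**
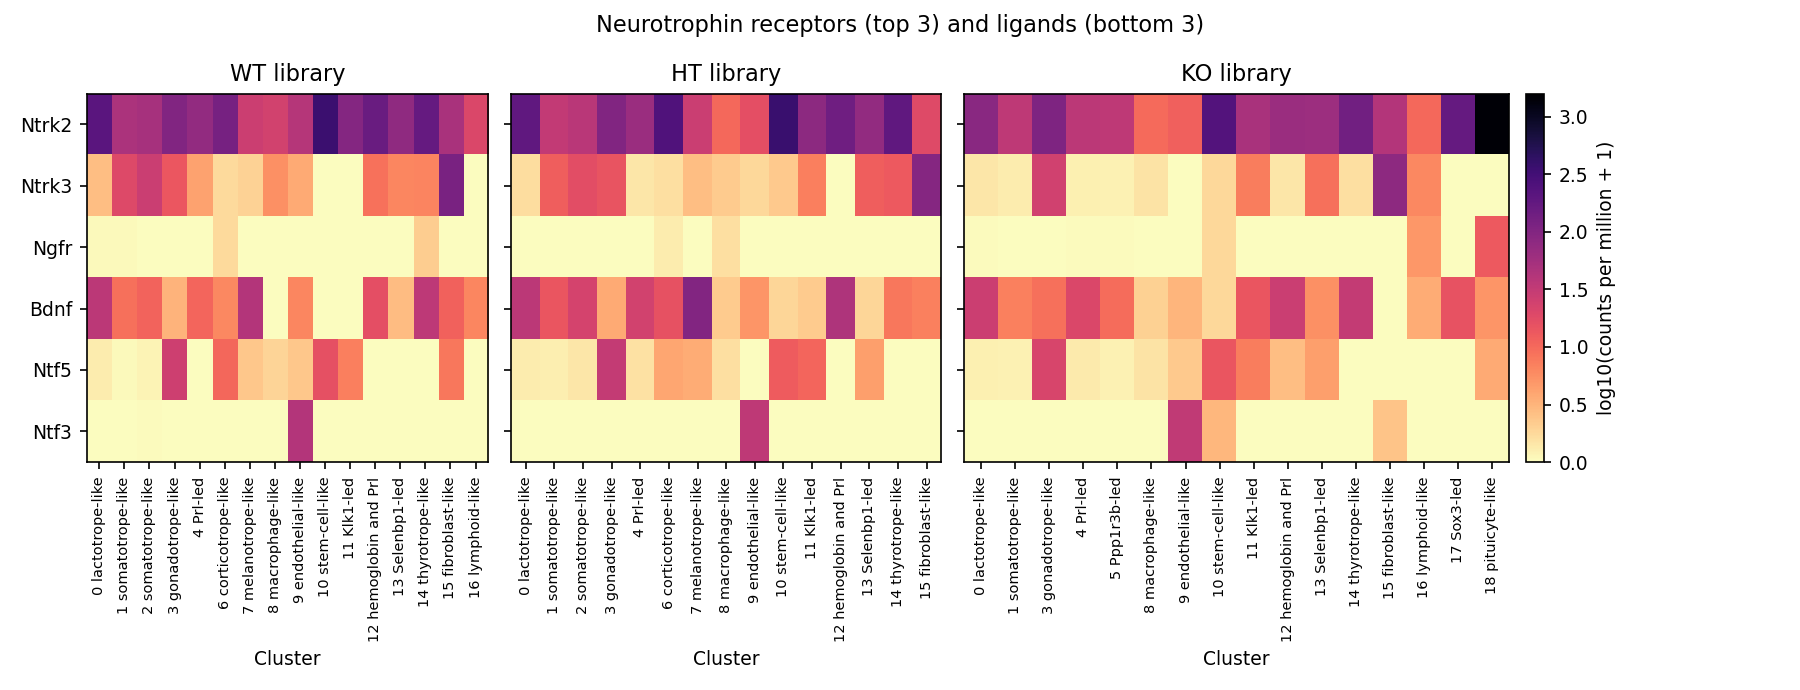
Levels of 3 receptor genes and 3 ligand genes in the WT, HT and KO libraries, as log10(CPM + 1). Clusters with at least 50 cells are drawn. Darker is higher, and colours are to be read along a row, since levels of different genes are not compared. Ntrk2 spans nearly all clusters, Ntf3 is highest in endothelial-like cluster 9 in each library, and Bdnf is highest in melanotrope-like cluster 7 of WT and HT.

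A list of 51 other genes of neurotrophin biology was examined by role, and 47 reached 50 counts when WT and KO were added. Over all cells, 36 of the 47 had a higher CPM in KO than in WT and 11 a lower one, a split that became 13 higher and 34 lower in the authors' scaled counts. The median log2 ratio with 1 CPM added was 0.12, against 0.05 over all 21791 compared genes, of which 13552 (62.2%) were higher. On the authors' scaled counts, 7321 of those genes were higher and 14470 were lower, so the direction of each role below depends on the scaling. Past 2-fold, Ntf3 (ratio 2.13), Shc3 (2.44) and Nptx2 (2.75) were higher (all genes, 5.79%), and Rtn4r and Mmp7 were lower (all genes, 2.55%). In lactotrope-like cluster 0, 22 of 34 compared genes were higher (64.7%, against 39.8% of all genes) and 12 were lower. None passed 2-fold (all genes, 1.03% higher and 1.92% lower). In corticotrope-like cells, 11 of 33 were higher in HT than in WT (33.3%, against 36.8% of all genes) and 22 were lower. There, 1 was at least 2-fold higher (all genes, 0.977%) and 3 were at least 2-fold lower (all genes, 2.53%).

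Among proteins that act with p75, 6 of 8 genes were higher in KO, beside 62.2% of all genes, and 2 of 8 on the authors' scaled counts. Rtn4r, the Nogo receptor that signals with p75, stood at 4.34, 1.34 and 0.886 CPM in WT, HT and KO, WT being high and both others low. Its KO over WT ratio was 0.204 (0.165 to 0.250). Nradd, a p75-like protein, was at 6.43, 7.35 and 8.85 CPM, Traf6, an adaptor of p75 signalling, at 5.46, 5.29 and 6.54 CPM, and Adam17, a protease that sheds receptor ectodomains, at 9.64, 9.76 and 11.6 CPM. Of the sortilin family, which bind unprocessed neurotrophins or sort receptors, 4 of 5 were higher in KO by CPM and 2 of 5 on scaled counts. Sorl1 was at 51.3, 49.4 and 61.8 CPM and Sorcs1 at 5.29, 4.99 and 4.24 CPM, while Sorcs3, at 0.413 CPM in KO, had a ratio of 1.70 on 26 and 55 counts.

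Of 16 adaptors and effectors of Trk receptors, 12 were higher in KO by CPM, beside 62.2% of all genes, and 5 on the authors' scaled counts. Shc3, a neuronal adaptor, stood at 0.280, 0.348 and 0.683 CPM, its highest cluster in KO being the pituicyte-like cells at 17.7 CPM. Gab1, a docking protein, was at 4.42, 5.53 and 7.89 CPM, with a KO over WT ratio of 1.79 (1.60 to 1.99). Crk, which links receptors to small GTPases, was at 18.1, 20.2 and 23.6 CPM and Sh2b2 at 1.10, 0.952 and 1.44 CPM. Among clusters of at least 100 cells, Crk and Sh2b2 were highest in endothelial-like cells in all 3 libraries, and such cells were most frequent in KO.

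Of 9 genes known to be induced by Trk signalling in neurons, which many other stimuli also induce, 8 were higher in KO by CPM, beside 62.2% of all genes, and 2 on the authors' scaled counts. The gene lower by CPM was Vgf, a secreted neuropeptide precursor, at 10.4, 6.11 and 5.36 CPM, a KO over WT ratio of 0.515 (0.468 to 0.566). Nptx2, a synaptic pentraxin, had 17, 17 and 58 counts. The ERK feedback genes Dusp6 and Spry2 were at 3.67, 5.24 and 5.95 CPM and at 8.46, 10.0 and 11.2 CPM, with WT lowest for both.

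Proteases that process or activate neurotrophin precursors differed most in Mmp7. It stood at 4.79, 0.945 and 0.533 CPM, WT being high, with a KO over WT ratio of 0.111 (0.0855 to 0.143). In WT and HT it was highest in somatotrope-like cluster 2, at 11.8 and 2.65 CPM, the cluster where Ntrk3 was also high. Plat, tissue plasminogen activator, was at 8.73, 9.89 and 10.9 CPM over all cells and at 467, 440 and 428 CPM in stem-cell-like cells. The convertase gene Pcsk6 stood at 34.5, 32.6 and 36.8 CPM, with HT lowest.

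The genes with a pattern most like each receptor were ranked by Pearson's r of log2(CPM + 1) over the 37 combinations of library and cluster with at least 100 cells, among 10814 genes. The combinations share libraries, cell types and free RNA, so the r values are descriptions. For Ntrk2 they were Wfdc2 (r = 0.844), B9d1 (r = 0.844), Tlcd4 (r = 0.841), Slc27a1 (r = 0.836) and Fah (r = 0.829). Wfdc2, a secreted protease inhibitor, stood at 138, 119 and 79.7 CPM in cluster 0 of WT, HT and KO and at 307 CPM in KO pituicyte-like cells. In stem-cell-like cells it stood at 141, 163 and 213 CPM, highest in KO, where Ntrk2 was lowest.

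For Ntrk3 the likeness was weaker, led by Slc7a5 (r = 0.665), Alcam (r = 0.657), Padi4 (r = 0.648), Lama1 (r = 0.628) and Svep1 (r = 0.616). Alcam, a cell adhesion gene, stood at 178, 175 and 209 CPM in gonadotrope-like cells of WT, HT and KO. In somatotrope-like cluster 1 it was at 74.6, 54.8 and 12.1 CPM, and in cluster 0 at 49.9, 34.7 and 11.7 CPM. Melanotrope-like cells differed, with Alcam at 212 and 210 CPM in WT and HT but Ntrk3 at 0.981 and 1.67 CPM. Slc7a5, Padi4, Lama1 and Svep1 did not share the high somatotrope-like level of Ntrk3. They stood at 1.86, 0.101, 0.270 and 0.101 CPM in WT cluster 2. In WT gonadotrope-like cells they stood at 13.3, 6.96, 32.2 and 20.5 CPM, and in KO fibroblast-like cells at 20.5, 84.9, 39.5 and 93.6 CPM. Ngfr had too few counts to be ranked.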

How the data were processed

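Single-cell RNA was measured in 3 libraries of mouse pituitary. The authors deposited raw counts per gene as whole-number sums for every pairing of genotype with cluster, beside the number of cells with a count. Per the labels, Chromium 3′ v3 reagents were used, and per the submitters' processing notes the tools were Seurat 3.1, Cell Ranger 5 and DESeq2 (no version given) with builds mm10 and GRCm38. Strand use in counting is not given in the sources used here. A second deposited table held the same sums times 1 factor per genotype and cluster (unit signal, the authors' scaled counts), used only as an alternative. Another table assigned each cell barcode to a genotype and cluster.

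Counts were divided by the total of the cells summed and given per 1000000 (CPM). Intervals are exact at 95%: Poisson for levels, Clopper-Pearson for shares, conditional binomial for ratios, computed with Python 3.11.15 and scipy 1.17.1. Ratios within clusters needed 100 cells in both libraries and, for the receptors described as compared, 50 counts in both together. With 1 library per genotype no test was run. Doublets were not treated beyond the authors' own steps, since counts per cell were not used here. The calculation of ratios was run on simulated independent Poisson counts. These leave out the dependence of counts from the same cell, so the run does not show that the intervals are wide enough. Receptors, marker lists and the pathway list were chosen with earlier results of these data known. Genes named were the receptors, the ligands, up to 4 genes per other role with the largest log2 KO over WT ratio, the 5 most similar genes per receptor (at least 50 counts in all and 20 CPM somewhere), and markers of clusters. Overlapping genes were added later. Some genes that this rule selects are not reported here.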

Additional observations from a re-analysis of the deposited data

Results flagged for a closer look

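Ratios of the same receptor pointed in opposite directions in different clusters in 3 cases, and the differences between the clusters were not tested, since each genotype had 1 library. For Ntrk2, HT over WT was 2.02 in corticotrope-like cluster 6 and 0.673 in somatotrope-like cluster 1. For Ntrk3, KO over WT was 1.80 in gonadotrope-like cluster 3 and 0.0172 in somatotrope-like cluster 1. For Ntrk3, KO over HT was 1.71 in gonadotrope-like cluster 3 and 0.0281 in somatotrope-like cluster 1. In each case the counting intervals of both ratios lay on opposite sides of 1.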

How the results depend on the processing

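Of 76 alternative values of the receptor ratios, 59 moved by less than their counting interval, 17 moved by more and 2 crossed 1. Both were of Ngfr, whose interval spans 1 as reported (1.37), and which became 0.647 without cluster 18 and 0.981 with clusters weighted by WT cells. Ntrk2 KO over WT over all cells, 0.660, became 0.632 with median-of-ratios scaling, 0.627 with totals that leave out hormone and mitochondrial genes, 0.725 as a ratio of shares of cells, 0.510 with clusters weighted by WT cells, and 0.588 without cluster 18, an alternative chosen after seeing the data. The authors' scaled counts gave 0.918, and 7.76 for Ngfr. They weight each cluster by its own factor when summed, and on them 13 pathway genes were higher in KO instead of 36, while 7321 of all 21791 genes were higher instead of 13552. As ratios of shares, Ntrk2 KO over WT was 0.578 in cluster 0, 0.596 in cluster 4 and 0.869 in cluster 10, and HT over WT was 1.65 in cluster 6. Ntrk2 in cluster 1 became 0.610 with median-of-ratios scaling and 0.611 without hormone and mitochondrial genes. With 1 CPM added to both values, Ntrk3 KO over WT became 0.464 over all cells, 0.540 in cluster 0, 0.0692 in cluster 1 and 0.0491 in clusters 1, 2 and 5, as the added CPM exceeds the KO level in these clusters. By rank correlation, 3 of the 5 genes most like Ntrk2 and 2 of those most like Ntrk3 stayed in the first 5. The cluster leading in Ntrk3 was 2 in WT and HT with at least 100 cells, and 15 with at least 50.

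No paired analysis was possible because WT, HT and KO have 1 library apiece, and leaving out a replicate was not run for the same reason. Low counts limit Ngfr and Ntf3, and the small WT and HT parts of cluster 18.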
